A study of Paxillus involutus with 25 samples.

Results

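Of the 18032 gene IDs counted in the ectomycorrhizal fungus Paxillus involutus, 68 formed a set that was low on potassium-depleted medium and back near the level of complete medium when flakes of K-vermiculite were added. The members were chosen from the measured values of 15 cultures, those on complete medium, on K-depleted medium and with K-vermiculite. A gene had to average at least 10 CPM (counts per 1000000 counts of its library) on complete medium and to be at least 2-fold above its K-depleted mean after 0.5 CPM was added to each mean. That gave 637 depletion-repressed genes. For each of these a position f was computed on the log2 scale, where 0 is the K-depleted mean and 1 is the complete-medium mean, and the 68 genes whose K-vermiculite mean lay within 0.25 of 1 were kept. Of the other 569 repressed genes, 564 lay below that window and 5 above it. The members lay a little short of the complete-medium mean more often than past it, with a median f of 0.845, so "restored" describes the window and not equality. The muscovite and phlogopite cultures took no part in the choice.

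The 25 cultures were mycelium of strain ATCC 200175, in 5 groups of 5 biological replicates. The groups were complete MMN agar, MMN agar made without KH2PO4 and called K-depleted here, and K-depleted agar carrying mineral flakes of about 2 cm2, which were of muscovite, of phlogopite or of K-vermiculite. Mycelium grew from 3 inoculation points at 25 °C in the dark for 21 days on cellophane. KH2PO4 is a source of both potassium and phosphate. Whether another phosphate salt took its place is not stated in the labels, so the 2 nutrients cannot be told apart in the comparison with complete medium. Each group is 1 strain in pure culture, with no plant root, and RNA came from mycelium lifted off the membrane. Fewer hyphae of one kind and less RNA per hypha cannot be told apart in such libraries. The study asked how the fungus obtains potassium from sheet silicates of different weatherability.

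Potassium is the main cation of fungal cells and sets turgor, membrane potential and the activity of many enzymes. Ectomycorrhizal fungi pass mineral nutrients to their host trees, and they can free potassium that is held between the layers of micas and vermiculites by exchanging or dissolving it. Fungi take up potassium and phosphate through membrane transporters whose genes respond to supply. The count table and the reference list of genes pair none of the 68 IDs with a product name, so no role is given to a member, the members are ordered by their pattern across cultures, and lists of transporter or enzyme genes were not run. All 68 are protein-coding genes in that list.

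Library totals ran from 21035680 to 41217502 counts. The correlation of log2 CPM between replicates of a group was 0.986 to 0.996, and no pair of replicates agreed within counting noise. None of the 68 members fell to the low-count filter, which kept 12744 genes for testing.

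The members spanned a wide range of levels. Their mean on complete medium ran from 11.5 to 10926 CPM with a median of 39.4 CPM, 22 members reached at least 100 CPM, and 40 lay below 50 CPM. On K-depleted medium the median of the means was 15.9 CPM, with K-vermiculite 35.1 CPM, with muscovite 19.4 CPM and with phlogopite 20.3 CPM. The ratio of complete to K-depleted means (0.5 CPM added) ran from 2.00 to 4.75, with a median of 2.43. The ratio of K-vermiculite to K-depleted means ran from 1.70 to 4.70 with a median of 2.22, and that of K-vermiculite to complete means from 0.729 to 1.27. The K-vermiculite mean was above the complete mean in 11 members and below it in 57. These ratios describe the choice of members and carry no test.

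In the edgeR fit, 65 of the 68 members were called higher on complete than on K-depleted medium, where 33.5% of all tested genes were called higher and 67.0% in either direction. With K-vermiculite 66 were called higher, where 22.5% of all genes were called higher, 23.7% lower and 46.2% either way. Between K-vermiculite and complete medium, 1 member was called higher and 2 lower, where 26.2% and 26.8% of all genes were (53.0% together). The rule fixed these counts and they are given only to describe the set. The members not called in one of the first 2 contrasts were PAXINDRAFT_97025, PAXINDRAFT_20413 and PAXINDRAFT_16664 on complete medium, and PAXINDRAFT_87122 and PAXINDRAFT_20413 with K-vermiculite. The values of all 5 complete-medium cultures were above all 5 K-depleted cultures in 61 members (31.8% of all tested genes, with 19.3% wholly below), and those of all 5 K-vermiculite cultures in 62 (16.9%, with 14.9% wholly below). Between K-vermiculite and complete medium 0 members were wholly above and 2 wholly below (14.4% and 26.4%).

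**Figure D1:**
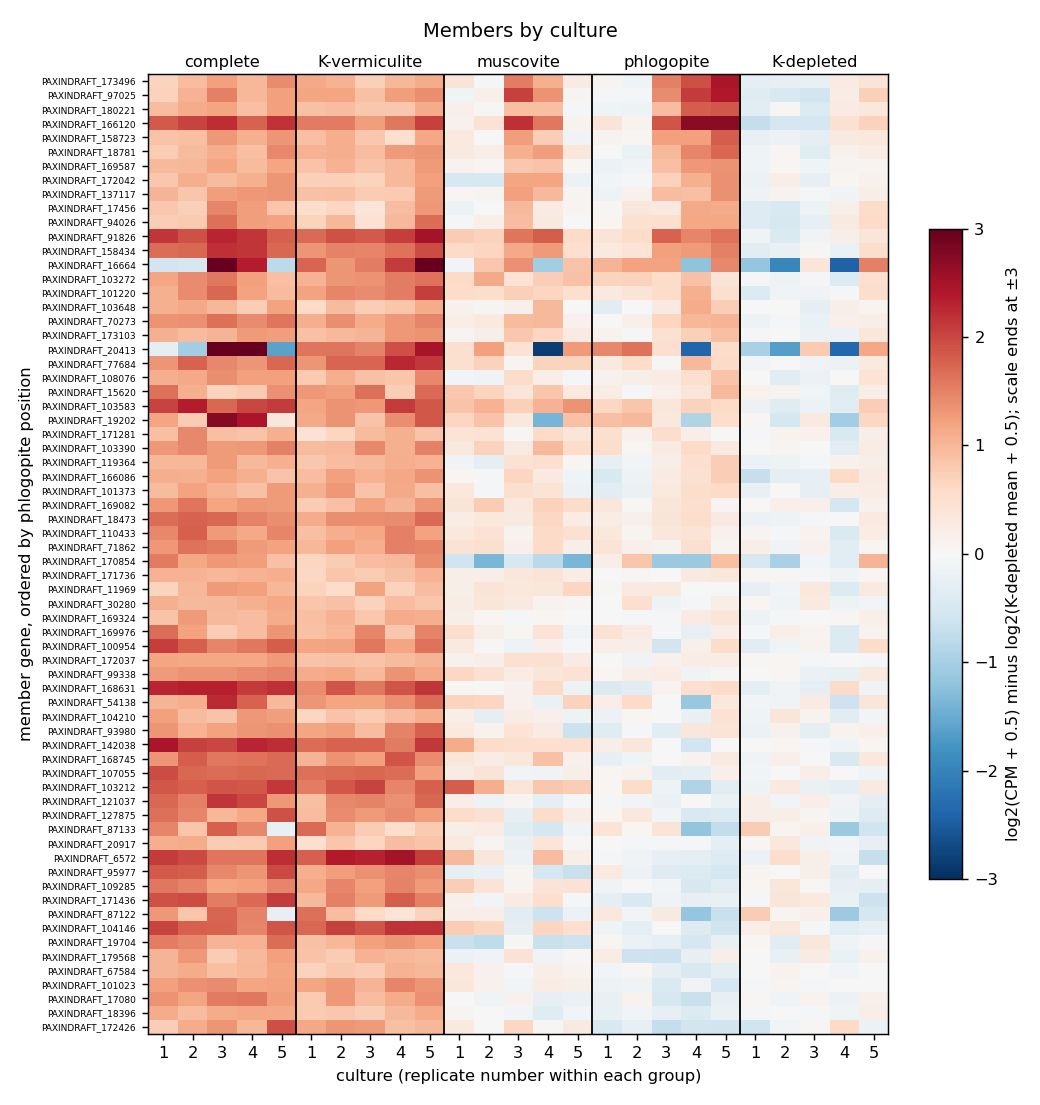
Level of the 68 members (rows, ordered by their position with phlogopite) in the 25 cultures (columns, 5 per group), as log2(CPM + 0.5) minus the log2 of the K-depleted mean + 0.5. Complete and K-vermiculite cultures are above the K-depleted mean in nearly all rows, and the rows at the top are also high in muscovite replicates 3 and 4 and in phlogopite replicates 3, 4 and 5.

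The members as a set held a small share of each library. It was 2.74 ± 0.713% (SD, n = 5) on complete medium, 2.32 ± 0.476% with K-vermiculite, 1.20 ± 0.144% with muscovite, 1.14 ± 0.249% with phlogopite and 1.11 ± 0.353% on K-depleted medium. Most of it came from PAXINDRAFT_87122, PAXINDRAFT_87133 and PAXINDRAFT_103583, which held 75.4% to 79.7% of the members' counts depending on the group. Without these 3 genes the shares were 0.562 ± 0.0256%, 0.506 ± 0.0532%, 0.284 ± 0.0322%, 0.280 ± 0.0471% and 0.232 ± 0.0143% in the same order. The rule placed the complete-medium and K-vermiculite means of every member above its K-depleted mean. The higher shares in those groups therefore describe the choice of members.

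The median position of the 68 members was also taken in each culture. In the K-vermiculite cultures it was 0.742, 0.840, 0.788, 0.898 and 1.03 for replicates 1 to 5, so replicate 1 was farthest from complete medium and replicate 5 lay past it. The complete-medium cultures were close together, from 0.960 to 1.05. The muscovite cultures lay from 0.0929 to 0.361, the phlogopite cultures from 0.0376 to 0.253 and the K-depleted cultures from -0.105 to 0.149. Both mineral groups overlapped the K-depleted cultures on this measure, and neither reached the lowest K-vermiculite culture. The scale runs between the K-depleted and complete-medium means, and the rule placed the K-vermiculite mean of each member near 1. The gap to those cultures is therefore a description. K-depleted replicate 5 was the highest of its group. In phlogopite replicate 4 the members were spread widest, with quartiles at -0.237 and 0.642.

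**Figure D2:**
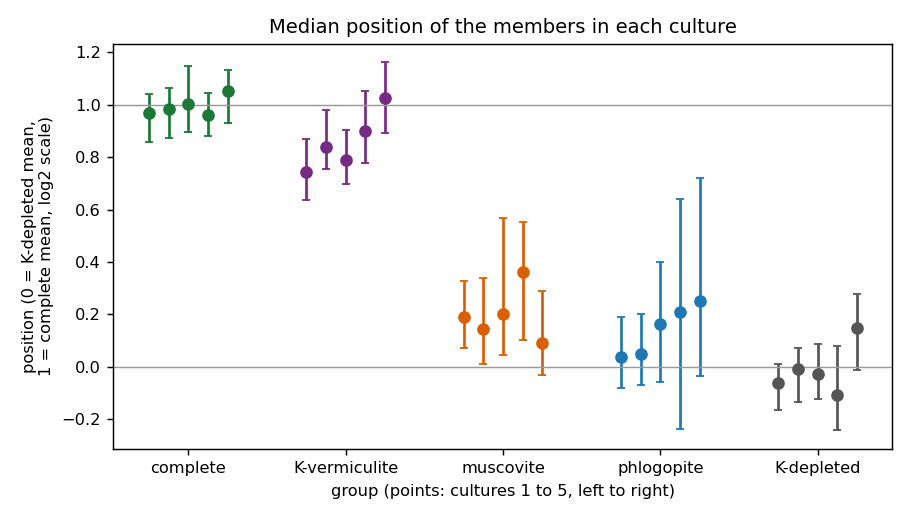
Median position of the 68 members in each culture (points, with bars from the first to the third quartile over members), where 0 is the K-depleted mean and 1 the complete-medium mean on the log2 scale. K-vermiculite cultures lie from 0.742 to 1.03, and muscovite and phlogopite cultures from 0.0376 to 0.361.

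A first pattern is that of members with clear separation of complete medium and K-vermiculite from the rest. PAXINDRAFT_168631 had the widest ratio between the media, 4.75. Its levels were 282, 289, 288, 247 and 262 CPM on complete medium and 154, 214, 172, 214 and 253 CPM with K-vermiculite (replicates 1 to 5 in this and later lists). It was at 46.4, 53.3, 47.3, 85.7 and 53.3 CPM on K-depleted medium, at 58.4, 58.0, 62.7, 85.6 and 51.4 CPM with muscovite and at 42.3, 45.2, 62.1, 81.7 and 85.1 CPM with phlogopite. All 10 cultures of the first 2 groups were above all 15 of the others, and the muscovite and phlogopite cultures overlapped the K-depleted ones.

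PAXINDRAFT_101373 was among the 2 members with f nearest 1, at 0.987. Its level was 99.0, 118, 106, 94.3 and 126 CPM on complete medium, 108, 127, 92.8, 114 and 96.0 CPM with K-vermiculite and 43.7, 50.8, 43.1, 58.9 and 59.5 CPM on K-depleted medium. The K-vermiculite values spanned those of complete medium, and neither group overlapped the K-depleted cultures. The other member nearest 1, PAXINDRAFT_173103, was at 23.0, 21.4, 22.4, 26.9 and 26.5 CPM on complete medium and 10.3, 10.9, 9.46, 9.40 and 13.7 CPM on K-depleted medium, and averaged 23.8 ± 3.60 CPM with K-vermiculite (SD, n = 5).

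PAXINDRAFT_103583 was an abundant member that showed graded levels over the groups. It was at 3849, 4844, 3139.9, 3794 and 4054 CPM on complete medium and at 2139.7, 2426, 2332, 4019.6 and 3426 CPM with K-vermiculite. With muscovite it was at 1702, 1943, 1545, 1945 and 2401 CPM, with phlogopite at 1446, 1679.9, 1206, 1527 and 1423 CPM and on K-depleted medium at 837, 733, 844, 747 and 1569 CPM. K-depleted replicate 5 stood above the other 4 and overlapped both the muscovite and the phlogopite cultures. Muscovite replicate 5 lay above K-vermiculite replicates 1 and 3, so these 2 groups overlapped too.

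At the limits of the rule, the members nearest 0.75 were PAXINDRAFT_17456, with f = 0.751, and PAXINDRAFT_19202, with f = 0.757. The repressed genes just below were PAXINDRAFT_167866 at 0.746 and PAXINDRAFT_170908 at 0.743. At the upper end PAXINDRAFT_77684, at 1.23, and PAXINDRAFT_101220, at 1.21, were inside, and PAXINDRAFT_180712 and PAXINDRAFT_69019, both at 1.253, lay just outside. PAXINDRAFT_77684 averaged 143 ± 22.4 CPM on complete medium and 182 ± 45.0 CPM with K-vermiculite (SD, n = 5). At the 2-fold limit PAXINDRAFT_20917, with a ratio of 2.00, was inside and PAXINDRAFT_121258, also 2.00 after rounding, was outside. The latter averaged 101 CPM on complete and 50.1 CPM on K-depleted medium. At the level limit PAXINDRAFT_173496, at 11.5 CPM on complete medium, was inside and PAXINDRAFT_17457, at 7.91 CPM, outside.

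Membership moved with single cultures. Leaving out each of the 15 complete, K-depleted and K-vermiculite cultures in turn gave between 55 and 78 members, of which 51 to 67 were among the 68. In all 15 settings 34 of the 68 were kept, and PAXINDRAFT_20917 was kept in 4 and PAXINDRAFT_17456 in 5. With CPM scaled by TMM factors (edgeR's correction of library sizes for composition) the rule gave 60 genes, 46 of them among the 68.

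A second pattern is that of members whose means hide a disagreement between replicates on complete medium. PAXINDRAFT_20413 was at 3.96, 2.16, 65.7, 50.3 and 1.29 CPM on complete medium, so replicates 3 and 4 were high and the other 3 lay in the range of the K-depleted cultures, which had 2.28, 1.24, 8.92, 0.564 and 11.8 CPM. With K-vermiculite all 5 were above every K-depleted culture, at 16.2, 16.1, 14.7, 20.3 and 29.8 CPM. PAXINDRAFT_16664, chosen after its values were seen, was likewise highest in complete replicates 3 and 4, with 1.95, 2.07, 38.1, 18.1 and 1.60 CPM. Its K-depleted values were 1.12, 0.427, 4.14, 0.176 and 9.75 CPM. PAXINDRAFT_19202 had 31.6, 23.4, 93.5, 76.6 and 17.4 CPM on complete medium, again highest in replicates 3 and 4, and 30.6, 35.5, 24.9, 36.5 and 51.0 CPM with K-vermiculite. In each of these 3 members the complete-medium mean lay between replicates 3 and 4 and the other 3 cultures.

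**Figure D3:**
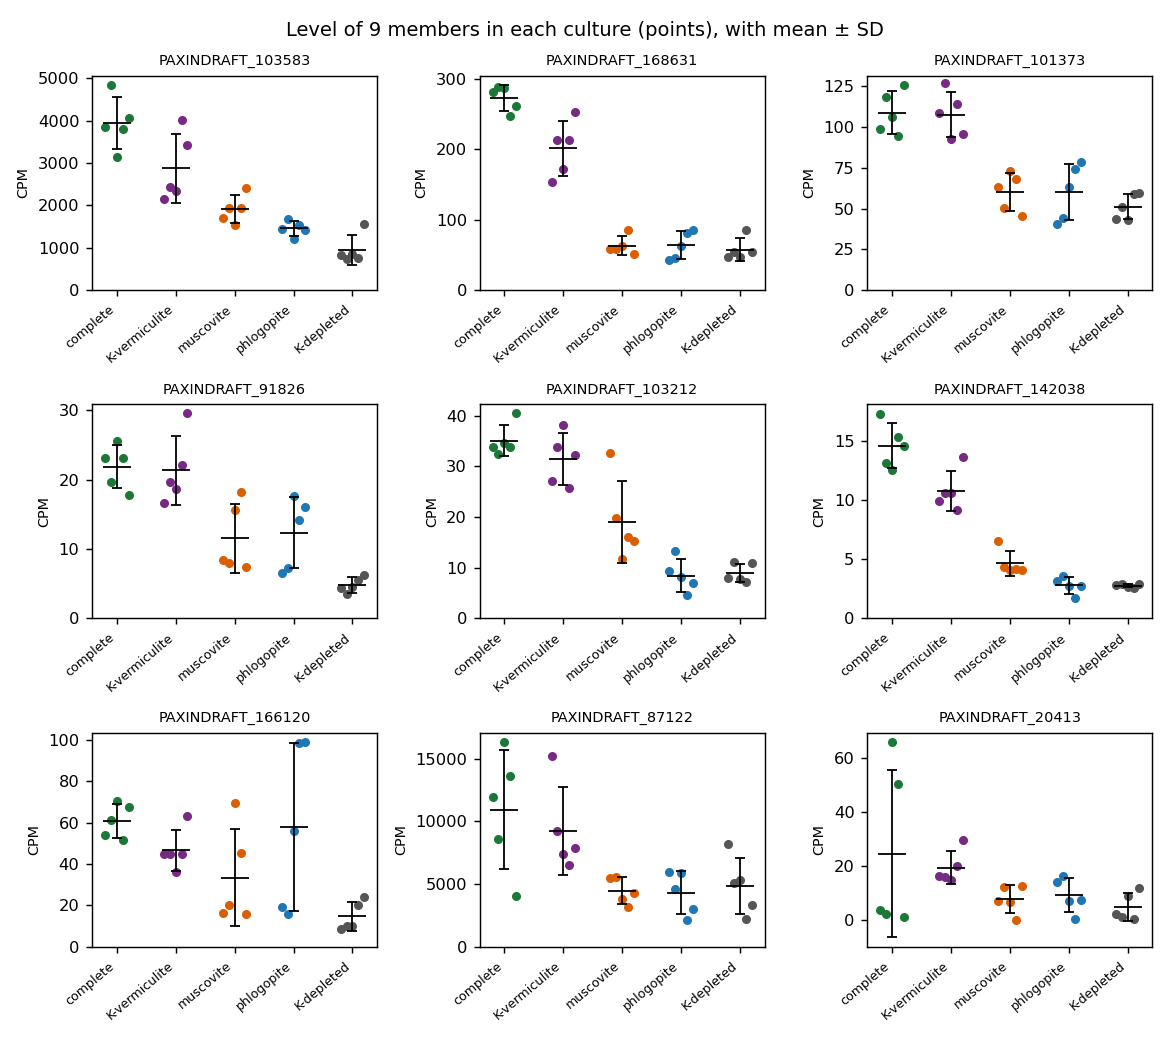
CPM of 9 members in each culture (points, replicates 1 to 5 from left to right), with the mean and SD of each group (n = 5) in black. PAXINDRAFT_168631 and PAXINDRAFT_101373 separate complete medium and K-vermiculite from the rest, PAXINDRAFT_166120 is spread widely with muscovite and phlogopite, and PAXINDRAFT_20413 is high in only 2 complete-medium cultures (65.7 and 50.3 CPM).

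The most abundant members, PAXINDRAFT_87122 and PAXINDRAFT_87133, lie close together in the reference order of genes, with 1 gene between them. PAXINDRAFT_87122 was at 11976, 8595, 16351, 13634 and 4075 CPM on complete medium, 15188, 9224, 7366, 6486 and 7889 CPM with K-vermiculite and 8161, 5103, 5362, 2259 and 3346 CPM on K-depleted medium, and these groups overlapped. PAXINDRAFT_87133 followed it from culture to culture. The ratio of PAXINDRAFT_87122 to PAXINDRAFT_87133 was 1.45 to 1.71 over all 25 cultures. The gene between them, PAXINDRAFT_87129, kept a ratio to PAXINDRAFT_87133 of 0.837 to 1.07, passed the fold and level limits and had f = 0.724, below the limit of 0.75. The gene on the other side of PAXINDRAFT_87133, PAXINDRAFT_177523, averaged 27683 CPM on complete and 11803 CPM on K-depleted medium and had f = 0.470, with a ratio to PAXINDRAFT_87133 that was looser, 2.07 to 6.24. Whether these neighbours share reads through similar sequence was not tested, and how reads that map to several genes were counted is not given in the sources used here.

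Beyond this pair, the members were scattered. No 2 members were direct neighbours, and 3 pairs lay 2 genes apart. The other pairs were PAXINDRAFT_101373 with PAXINDRAFT_171436 and PAXINDRAFT_71862 with PAXINDRAFT_110433. Of 115 neighbouring positions beside members, 14 (12.2%) held genes that were repressed by the level and fold limits, against 3.53% of all 18033 reference genes. None held a member. Among all counted genes, 9028 reached the level limit on complete medium, and 637 of these passed the fold limit too. How many of the 115 positions reached the level limit was not counted. PAXINDRAFT_87129 is counted beside both of its neighbours. This is a description of position with no test, and it includes the abundant group just described.

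The comparison of phlogopite with muscovite is the one in which neither group took part in the choice of members. Its edgeR test still took the scaling and the spread from all 25 libraries, among them the 15 used by the rule. In this comparison 8 members were lower with phlogopite (2.21% of all tested genes were called lower) and 0 were higher (1.94%, or 4.15% either way). Counting unadjusted p below 0.05 gave 15 members, where 20.6% of all genes passed, and DESeq2 called 9, all lower, where it called 6.37% of all genes. The median log2 fold change of the members was -0.03, against 0.00 over all tested genes. Of the 68 values, 32 were positive and 36 negative. Of the other 569 repressed genes, 38 (6.68%) were called lower and 1 higher. All 5 phlogopite values lay below all 5 muscovite values in 6 members (2.83% of all genes), and 0 lay wholly above (2.12%).

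PAXINDRAFT_103212 differed most among the called members. It was at 32.7, 19.7, 11.7, 16.1 and 15.3 CPM with muscovite and 9.30, 13.4, 8.10, 4.54 and 6.93 CPM with phlogopite, and the difference was -1.17 in log2 units with an SE of 0.25 and an edgeR adjusted p of 0.0107. Muscovite replicate 1 was the highest, and phlogopite replicate 2 overlapped muscovite replicate 3. On K-depleted medium it was at 8.05, 11.1, 7.74, 7.19 and 10.9 CPM, within the range of the phlogopite cultures, and on complete medium at 33.9, 32.4, 34.7, 33.9 and 40.5 CPM. PAXINDRAFT_142038 was at 6.54, 4.32, 4.13, 4.19 and 4.12 CPM with muscovite, 3.21, 3.63, 2.77, 1.70 and 2.74 CPM with phlogopite and 2.81, 2.91, 2.66, 2.57 and 2.94 CPM on K-depleted medium. The muscovite values were above all of the other 2 groups, and phlogopite over muscovite came to -0.73 in log2 units with an SE of 0.16 and an edgeR adjusted p of 0.00937. Without muscovite replicate 1 the call of each was kept.

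PAXINDRAFT_109285 was at 16.8, 13.3, 10.5, 13.1 and 13.4 CPM with muscovite and 9.12, 9.97, 9.31, 6.87 and 7.78 CPM with phlogopite, with no overlap, and the difference was -0.63 in log2 units with an SE of 0.13 and an edgeR adjusted p of 0.00602. It was the only 1 of the 8 called under every alternative tried. PAXINDRAFT_104146 was at 6.80, 6.14, 3.06, 6.19 and 5.58 CPM with muscovite and 3.43, 2.97, 3.84, 2.79 and 2.34 CPM with phlogopite. The difference was -0.84 in log2 units with an SE of 0.18 and an edgeR adjusted p of 0.0107, and only muscovite replicate 3 fell within the phlogopite range. PAXINDRAFT_101023 was at 13.9, 11.9, 10.2, 12.8 and 12.4 CPM with muscovite and 9.75, 10.1, 7.93, 10.1 and 7.54 CPM with phlogopite, with no overlap, and differed by -0.42 in log2 units with an SE of 0.10 and an edgeR adjusted p of 0.0127. PAXINDRAFT_67584 averaged 167 ± 15.5 and 133 ± 17.3 CPM (SD, n = 5). The difference was -0.33 in log2 units with an SE of 0.08 and an edgeR adjusted p of 0.0179, and it was not called by edgeR without muscovite replicate 1 (adjusted p 0.0695), phlogopite replicate 4 (0.0709) or phlogopite replicate 5 (0.0562).

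The number of calls was 5 in each case when muscovite replicate 1, phlogopite replicate 4 or phlogopite replicate 5 was left out, where 1.86%, 1.66% and 1.92% of all genes were called in place of 4.15%. It was 2 when only these 2 groups were fitted, where 1.70% of all genes were called. In that fit the adjusted p of edgeR was 0.127 for PAXINDRAFT_103212, 0.0695 for PAXINDRAFT_142038, 0.0619 for PAXINDRAFT_104146, 0.0796 for PAXINDRAFT_101023 and 0.0935 for PAXINDRAFT_67584. Of the 8 members, 5 were called in all 10 fits that left out 1 culture.

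**Figure D4:**
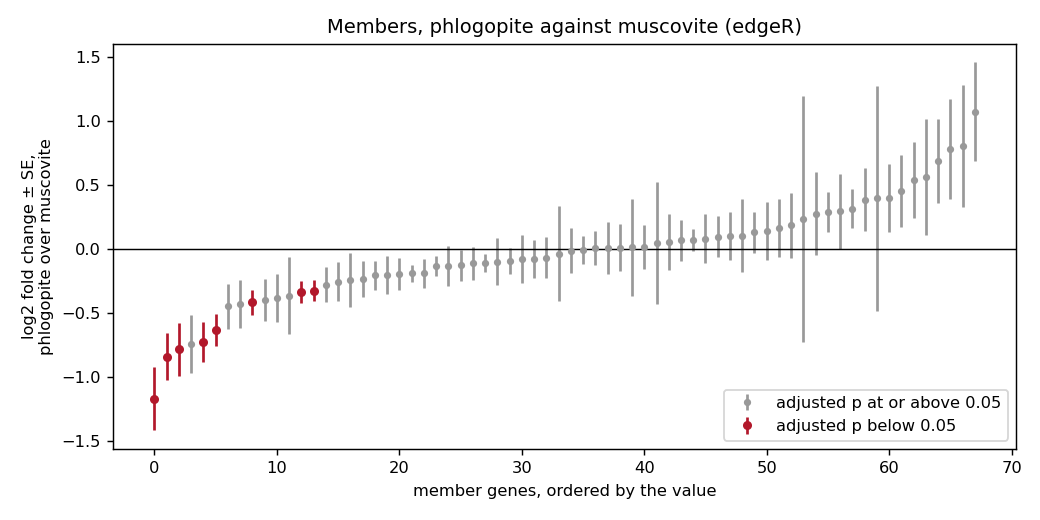
Log2 fold change of phlogopite over muscovite for the 68 members (points with SE from edgeR), ordered by value. The 8 members with an adjusted p below 0.05 all lie below 0, from -1.17 to -0.33, and the members with the highest positive values carry wide errors.

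Muscovite was compared with K-depleted medium to see what that mineral changed among the members. Here 12 of the 68 were called higher and 0 lower, 17.6% of the members, where 1.50% of all tested genes were called higher, 1.86% lower and 3.36% either way. Scaling by library totals left 33.3% of all genes' calls on the higher side in place of 44.6%, and again 12 members were called. The median log2 fold change of the members was 0.40 against 0.00 over all genes, and 60 of 68 were positive. The K-depleted cultures served in the choice of members, which had to be low there, so the counts are not an independent result. The same holds for the adjusted p of each single member in this comparison. The other repressed genes, chosen with the same limits on the 2 media, had 26 of 569 called higher (4.57%), 6 called lower and a median of 0.10.

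The 3 widest of these changes were in PAXINDRAFT_91826, PAXINDRAFT_103212 and PAXINDRAFT_103583. PAXINDRAFT_91826 was at 8.49, 8.06, 15.6, 18.2 and 7.41 CPM with muscovite and 4.36, 3.45, 4.50, 5.56 and 6.33 CPM on K-depleted medium, so all muscovite cultures were higher, replicates 3 and 4 most. The difference was 1.27 in log2 units with an SE of 0.30 and an edgeR adjusted p of 0.0213, and the adjusted p was 0.0517, 0.0552 and 0.0579 without K-depleted replicates 1, 2 and 3 and 0.0746 without muscovite replicate 4. It was 0.077 when only these groups were fitted. PAXINDRAFT_103212 (values above) differed by 1.11 in log2 units with an SE of 0.25 and an edgeR adjusted p of 0.0141, with no overlap between the groups, and was likewise not called when only these groups were fitted (adjusted p 0.0925). PAXINDRAFT_103583 differed by 1.04 in log2 units with an SE of 0.19 and an edgeR adjusted p of 0.00207. Of the 12 members, 7 were called in all 10 fits that left out 1 culture. Without muscovite replicate 4 the count was 7, where 1.77% of all genes were called in place of 3.36%.

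In 8 members all 5 muscovite values were above all 5 K-depleted values (1.80% of all genes, with 2.64% wholly below). With complete medium as the reference, 56 members were called lower with muscovite (33.4% of all genes, with 32.1% higher and 65.5% either way) and 48 had every muscovite value below every complete-medium value (33.0%, with 17.6% wholly above). Measured as position, muscovite means ran from -0.703 to 0.857 with a median of 0.266. The single member above 0.75 was PAXINDRAFT_97025, at 0.857, and the lowest was PAXINDRAFT_170854, at -0.703, and both were chosen after their values were seen. PAXINDRAFT_170854 was at 25.7, 14.8, 27.9, 22.1 and 14.9 CPM with muscovite and 27.9, 19.5, 36.7, 31.3 and 79.8 CPM on K-depleted medium, where replicate 5 was high.

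For phlogopite against K-depleted medium, 11 members were called higher and 0 lower (2.77% and 2.38% of all tested genes, 5.15% together), with 49 of 68 positive and a median log2 fold change of 0.23 against -0.01 over all genes. Scaling by library totals left 32.1% of all genes' calls on the higher side in place of 53.8%, and then 6 members were called. The same K-depleted cultures served here as in the muscovite comparison and in the choice of members. Neither the counts nor the adjusted p of single members are therefore independent of that choice. None of the 11 calls held under every culture left out. Leaving out K-depleted replicates 1 to 5 in turn gave 3, 0, 2, 4 and 19 calls, where 1.61%, 1.10%, 1.55%, 2.87% and 10.8% of all genes were called. Leaving out those with phlogopite gave 18, 17, 4, 0 and 1, where 9.89%, 10.0%, 2.55%, 1.02% and 0.752% of all genes were. The count was 0 when only these 2 groups were fitted, where 11 of 12562 genes (0.0876%) were called at all. Among the fits that left out 1 culture, the 3 with 17 or more calls among the members had the highest shares over all genes.

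PAXINDRAFT_166120 had the widest change with phlogopite, and its cultures disagreed. It was at 19.4, 16.0, 55.8, 98.4 and 98.8 CPM with phlogopite and 8.85, 10.0, 10.3, 20.3 and 24.2 CPM on K-depleted medium. The difference was 2.00 in log2 units with an SE of 0.50 and an edgeR adjusted p of 0.029. Replicates 4 and 5 with phlogopite were above every complete-medium culture, which lay at 53.8, 61.3, 70.4, 51.7 and 67.5 CPM, and replicates 1 and 2 were within the K-depleted range. With muscovite the values were 16.2, 20.1, 69.4, 45.3 and 16.0 CPM, with replicates 3 and 4 high. The adjusted p was 0.0776, 0.0802 and 0.0722 without K-depleted replicates 1, 2 and 3. It was 0.0501, 0.103 and 0.0998 when phlogopite cultures 3, 4 and 5 were left out.

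PAXINDRAFT_173496 was likewise highest in phlogopite replicates 3 to 5 and muscovite replicates 3 and 4, with 5.57, 4.73, 15.9, 21.3 and 30.7 CPM with phlogopite, 6.98, 5.03, 16.0, 11.4 and 6.30 CPM with muscovite and 4.15, 4.34, 4.43, 6.23 and 6.93 CPM on K-depleted medium. Phlogopite over K-depleted medium came to 1.60 in log2 units with an SE of 0.41 and an edgeR adjusted p of 0.0305, and the call was lost without any one of K-depleted replicates 1 to 4, with adjusted p from 0.0501 to 0.0802, or of the cultures 3 to 5 with phlogopite, with adjusted p from 0.0543 to 0.119. PAXINDRAFT_91826 was the only member with every phlogopite culture, at 6.50, 7.32, 17.6, 14.2 and 16.0 CPM, above every K-depleted culture (0.706% of all genes), and 1 member, PAXINDRAFT_101023, lay wholly below (2.79%). For PAXINDRAFT_91826 the difference was 1.37 in log2 units with an SE of 0.30 and an edgeR adjusted p of 0.0174, and the call was lost without K-depleted replicate 2 (adjusted p 0.0531), phlogopite replicate 4 (0.0544) or phlogopite replicate 5 (0.0616).

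By position, phlogopite means ran from -0.395 to 1.40 with a median of 0.165, and 7 members reached at least 0.75, while 19 were below 0. The 7 were PAXINDRAFT_173496, PAXINDRAFT_97025, PAXINDRAFT_180221, PAXINDRAFT_166120, PAXINDRAFT_158723, PAXINDRAFT_18781 and PAXINDRAFT_169587. This subset was seen in the data and is given without a test. PAXINDRAFT_97025 was at 19.0, 18.7, 52.2, 84.9 and 104 CPM and PAXINDRAFT_18781 at 81.5, 69.8, 159.5, 223 and 266 CPM with phlogopite, each with replicates 3, 4 and 5 above replicates 1 and 2. With muscovite, replicates 3 and 4 were the 2 highest for both, at 17.6, 21.6, 81.3, 50.0 and 20.5 CPM and 97.6, 92.5, 171, 194 and 103 CPM. At the other end PAXINDRAFT_172426, also chosen after its values were seen, was lowest, with a phlogopite mean of 9.37 ± 1.23 CPM against 13.5 ± 4.27 CPM on K-depleted medium (SD, n = 5).

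Set beside the 569 other repressed genes, the median position of the members was higher with each mineral. It was 0.0519 with muscovite and -0.0196 with phlogopite for the other genes, against 0.266 and 0.165 for the members. With muscovite, 39 members (57.4%) and 55 other genes (9.67%) lay at 0.25 or above, and with phlogopite 28 (41.2%) and 50 (8.79%). The positions with all minerals share the K-depleted and complete means, and no test of this difference was made. The spread between replicates is also given without a test. The median coefficient of variation of a gene was 25.3% with phlogopite and 21.6% with muscovite for the members, and 14.1% and 12.6% for the others. On complete medium it was 14.3% and 11.0%.

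**Figure D5:**
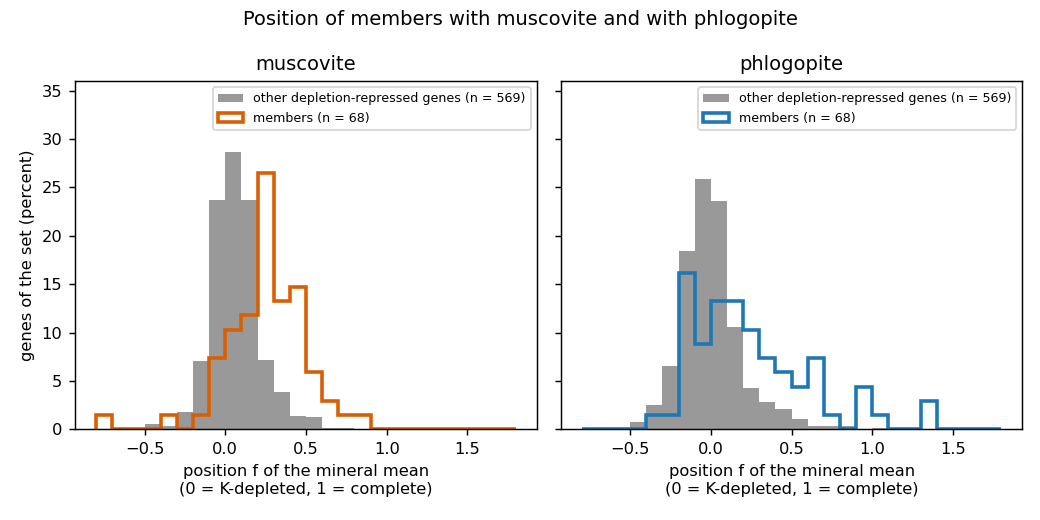
Position of the muscovite (left) and phlogopite (right) mean between K-depleted (0) and complete medium (1), as the percentage of the 68 members (outline) and of the 569 other repressed genes (grey) in each bin of width 0.1. Members centre at 0.266 and 0.165, the other genes at 0.0519 and -0.0196, and 7 members reach 0.75 or more with phlogopite.

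K-vermiculite cultures were part of the rule, so the comparisons with the other minerals are descriptions. With K-vermiculite, 53 members were called higher than with muscovite (18.9% of all genes) and 51 higher than with phlogopite (25.1%). None was called lower in either, where 20.2% and 25.3% of all genes were lower and 39.1% and 50.4% were called either way. All 5 K-vermiculite values were above all 5 muscovite values in 45 members (16.3%, with 11.4% wholly below) and above all 5 phlogopite values in 46 (20.5%, with 14.7%). Against complete medium, 54 members were called lower with phlogopite (34.6% of all genes, with 33.5% higher and 68.1% either way), and 48 lay wholly below (33.9%, with 18.6% wholly above). The log2 fold change of K-vermiculite over muscovite was positive in all 68 members, from 0.19 to 1.82, and that over phlogopite ran from -0.56 to 2.42, with 5 members below 0.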

How the data were processed

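RNA was extracted from mycelium of 25 cultures and sequenced. Per the labels' protocols the kit was TruSeq Stranded mRNA. The submitters' processing notes name bcl2fastq 2.19, STAR 2.5.2b and HTSeq, with no settings. Genome build, annotation, strand setting and filters: not given in the sources used here. The deposited table holds raw counts of the authors for each gene ID, and all 25 columns were mapped by their labels. CPM was computed from column totals (21035680 to 41217502 counts) and serves for the rule and all levels; it is not per gene length, so levels are not compared between genes as transcript numbers. Tests used edgeR 4.0.16 in R 4.3.3: filterByExpr with a minimum count of 10 and a minimum total of 15 (12744 genes and 99.995% of counts stayed), TMM factors (0.945 to 1.08), 1 coefficient per group over all 25 libraries, robust quasi-likelihood F-tests, and Benjamini-Hochberg adjustment within each contrast over all tested genes with a threshold of 0.05. "Called" means an adjusted p below it, and the SE is the absolute log2 fold change divided by the square root of F. DESeq2 1.42.0 was an alternative. The scripts were tested on simulated data. The reference list (assembly of the same strain) matched all 18032 IDs (2 of them by symbol) and served for biotype and gene order only; it names no scaffolds, and a run of neighbours ends where the start position falls back. Pathway lists, protein and promoter sequences were not used here, since the reference list holds neither product names nor sequences. The members and lists were chosen with earlier results of these data known. The text names the members with the highest complete-medium mean or ratio, those nearest the limits of f or nearest 1, and the called members with the smallest p or widest change (22 members); others are marked as chosen after their values were seen, or listed by count. The main fit did not pair cultures by replicate number (see the closing section). A count of 5 replicates per group limits precision. The edgeR p-values set a difference of group means against the spread within groups, estimated over all 25 libraries with information shared across genes.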

Additional observations from a re-analysis of the deposited data

Results flagged for a closer look

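In 120 groups of 5 cultures (22 named members and 2 summary measures in 5 groups), 9 had a culture that stood apart by Dixon's 95% limit, 7.50%. That limit flags about 1 in 20 for independent, normally distributed values. The members were picked from these same data and some moved together across cultures, so 7.50% cannot be set against that rate. PAXINDRAFT_103583 was at 1569 CPM in K-depleted replicate 5, against 733 to 844 CPM in the other 4. PAXINDRAFT_168631 was at 85.7 CPM in K-depleted replicate 4, against 46.4 to 53.3 CPM. PAXINDRAFT_20917 was at 297 CPM in phlogopite replicate 5, below the others at 342 to 356 CPM, and PAXINDRAFT_101220 was at 17.4 CPM in phlogopite replicate 4, above the others at 9.93 to 11.9 CPM. In muscovite replicate 3, PAXINDRAFT_179568 was at 294 CPM (others 194 to 223 CPM) and PAXINDRAFT_17456 at 30.1 CPM (others 13.7 to 18.0 CPM). PAXINDRAFT_142038 was at 6.54 CPM in muscovite replicate 1, against 4.12 to 4.32 CPM. PAXINDRAFT_103212 was at 40.5 CPM in complete-medium replicate 5, against 32.4 to 34.7 CPM. The members' share of counts was 3.14% in K-vermiculite replicate 1, against 1.95% to 2.28% in the other 4.

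The effects of muscovite and phlogopite, both relative to K-depleted medium, differed by the edgeR test of phlogopite against muscovite in 8 members. The log2 fold changes were -1.17 for PAXINDRAFT_103212, -0.84 for PAXINDRAFT_104146, -0.79 for PAXINDRAFT_172426, -0.73 for PAXINDRAFT_142038, -0.63 for PAXINDRAFT_109285, -0.42 for PAXINDRAFT_101023, -0.34 for PAXINDRAFT_99338 and -0.33 for PAXINDRAFT_67584. The call of PAXINDRAFT_172426 was lost when any of muscovite replicates 1, 3 and 5 or phlogopite replicates 3, 4 and 5 was left out, with adjusted p from 0.0574 to 0.0820, and that of PAXINDRAFT_99338 without muscovite replicates 1, 2 and 5 or phlogopite replicates 4 and 5, from 0.0514 to 0.0915.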

How the results depend on the processing

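The number of members stayed within 1.5 times of 68 under every alternative tried, from 55 to 78 with a culture left out, 60 with TMM-scaled CPM, 66 with a pseudocount of 1, 71 and 55 with minimums of 5 and 20 CPM and 72 with means of log2 values. Members chosen with TMM-scaled CPM held 1.36% of counts with muscovite in place of 1.20%. For muscovite against K-depleted medium, the 12 calls (3.36% of all genes called) became 20 with DESeq2, 19 higher and 1 lower (4.99%), and 7 to 16 with a culture left out (1.75% to 4.12%). For phlogopite against K-depleted medium, the 11 (5.15%) became 6 with library totals alone (4.33%), 6 without a filter on low counts (4.14%), 0 with the 2 groups alone (0.0876%), 18 with DESeq2 (8.89%) and 0 to 19 with a culture left out (0.752% to 10.8%). For phlogopite against muscovite, the 8 (4.15%) became 2 with the 2 groups alone (1.70%) and 5 to 9 with a culture left out (1.66% to 5.96%). Not every fit was one-sided. Of the 9 without muscovite replicate 3, 1 was higher with phlogopite. Against K-depleted medium, 1 member was lower with muscovite when K-depleted replicate 2 or muscovite replicate 3 was left out. With phlogopite 1 was lower without phlogopite replicate 2, and 1 among members chosen with TMM-scaled CPM. The causes were not tested. Over the called members' log2 fold changes, 26 of 192 alternatives lost the call for muscovite against K-depleted medium, 86 of 176 for phlogopite against K-depleted medium and 20 of 128 for phlogopite against muscovite; none changed sign. With the replicate block the counts were 16, 15 and 8, where 3.66%, 7.27% and 4.65% of all genes were called. The main fit did not pair cultures by number, and whether same-numbered cultures shared handling cannot be decided from these values. Correlations of deviations between same-numbered cultures ran from -0.0457 to 0.155, 0.0823 to 0.316 and -0.193 to 0.454 in the 3 comparisons. Between cultures of different numbers they ran from -0.284 to 0.220, -0.283 to 0.231 and -0.403 to 0.386. Of 5 cultures, 2, 3 and 2 correlated best with their own number. Over all genes with at least 10 counts in a pair, replicates of a group differed by a chi-square per degree of freedom of 10.6 to 91.9. Counting noise alone gives 1. Abundant genes weigh most in this value, so it does not tell what limits precision for members at low levels.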

Other observations

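Members differed in how much their replicates varied, and the group in which they varied. A coefficient of variation of at least 40% was seen for 17 of 68 members with phlogopite, 11 with muscovite, 8 on K-depleted medium, 6 on complete medium and 1 with K-vermiculite. These counts are given without a test and without an explanation.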
